A study of Homo sapiens with 16 samples.

Results

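HLA class I molecules, the proteins that build and load them and the checkpoint ligands that tumor cells show to T cells were followed across 2 hepatocellular carcinoma (HCC) cell lines and their Sorafenib-resistant derivatives. Sorafenib is a multikinase inhibitor used against advanced HCC, and Huh7 and Hep3B are human liver cancer lines. The genes were a fixed list of 9 of the 26258 genes measured: HLA-B, HLA-C, HLA-E, B2M, TAP1, TAPBP, PSMB9, CD274 and CD276. They were picked by name from the deposited table of CPM values, which are read counts scaled to the library total, through their Entrez gene numbers, and the rule uses no measured value. Each line gave 4 groups of 2 libraries, 16 libraries in all. Parental cells and cells labeled DMSO carry the label untreated, IR cells had been raised in increasing Sorafenib concentrations, and CR cells had been kept in a constantly high concentration. IR and CR libraries are labeled with 7 μM Sorafenib, so a difference from parental cells holds both the presence of the drug and the acquired resistance, which cannot be told apart. Each IR or CR population is a single derived line, the DMSO cells are not described further in the sources used here, and the culture and treatment notes name Huh7 cells only. The study's methods speak of biological replicates, but in a number that differs from the 2 libraries a group has here, so it is not certain that these came from separate cultures, and the p-values measure the spread between these libraries.

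Class I molecules present peptides from inside the cell to CD8 T cells. The proteasome cuts proteins into peptides, TAP carries them into the endoplasmic reticulum, tapasin bridges TAP and the empty class I molecule, and a heavy chain folds with the light chain B2M around the peptide and travels to the surface. Interferon-gamma induces most of these genes through factors such as IRF1 and NLRC5, and it also induces CD274 (PD-L1), the ligand of the inhibitory receptor PD-1, while HLA-E displays leader peptides of other class I chains to an inhibitory receptor of natural killer (NK) cells. CD276 (B7-H3) is a checkpoint ligand of the B7 family that many solid tumors express.

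The promoters show where several of these genes share a sequence element. HLA-B, HLA-C, HLA-E, TAP1, TAPBP and PSMB9 lie on chromosome 6 in the major histocompatibility complex, CD274 on chromosome 9, and B2M and CD276 on chromosome 15. RefSeq promoter windows (GRCh38.p14), placed on GRCh37 by an exact match of the 250 bases before the annotated start, were found for 8 of the 9 genes. An ISRE core, the element bound by interferon regulatory factors, was searched as GAAA, any 2 bases and GAAA on both strands and stood in the windows of 4 of the 8 genes, against 3.02% of 35116 promoter windows of all genes. In each of the 4, a pair of overlapping cores formed 1 run. These windows are printed below, 5′ to 3′ on the strand of the gene, with the overlapping pair in capitals. They lie at chr9:5450292-5450541 (plus strand) for CD274, chr15:45003465-45003714 (plus) for B2M, chr6:32821482-32821731 (minus) for TAP1 and chr6:33281856-33282105 (minus) for TAPBP.
CD274: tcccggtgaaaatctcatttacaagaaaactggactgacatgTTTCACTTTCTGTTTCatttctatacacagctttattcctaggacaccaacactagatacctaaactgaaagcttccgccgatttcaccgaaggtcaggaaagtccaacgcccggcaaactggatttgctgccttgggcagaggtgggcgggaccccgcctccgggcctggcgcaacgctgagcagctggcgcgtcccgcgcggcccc
B2M: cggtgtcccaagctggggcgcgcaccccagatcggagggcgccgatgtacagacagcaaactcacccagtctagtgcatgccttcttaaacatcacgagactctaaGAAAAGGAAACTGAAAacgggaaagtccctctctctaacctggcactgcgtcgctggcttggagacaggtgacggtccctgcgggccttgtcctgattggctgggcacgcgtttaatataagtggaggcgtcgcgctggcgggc
TAP1: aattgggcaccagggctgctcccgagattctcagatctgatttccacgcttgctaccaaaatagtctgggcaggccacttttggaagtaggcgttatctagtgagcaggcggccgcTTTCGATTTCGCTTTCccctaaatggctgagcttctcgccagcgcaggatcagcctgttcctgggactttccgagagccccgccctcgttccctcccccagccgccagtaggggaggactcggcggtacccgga
TAPBP: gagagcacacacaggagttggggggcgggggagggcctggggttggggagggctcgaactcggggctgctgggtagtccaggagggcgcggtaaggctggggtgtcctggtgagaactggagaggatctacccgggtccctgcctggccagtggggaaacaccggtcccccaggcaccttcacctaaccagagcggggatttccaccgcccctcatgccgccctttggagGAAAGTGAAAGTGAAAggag
The pair begins 208 bases before the start of CD274, 144 before that of B2M, 134 before that of TAP1 and 20 before that of TAPBP. A κB-like element (GGGA, any base, T, any 2 bases and CC, both strands) was matched in the windows of B2M, HLA-B, HLA-C and TAP1, against 4.46% of all windows. A match is a description of the letters and was not tested as a site. Variants with other letters were not searched, so a window without a match can still hold a form of the element. TAP1 and PSMB9 stand back to back, with 487 bases between their annotated starts.

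Recovered library totals were 46613302 to 76860251 reads. An approximate upper limit of 3 reads, used for a count of 0, thus corresponds to 0.0390 to 0.0644 CPM, and such limits cover counting error only. Replicates of Huh7 DMSO and Huh7-IR cells lay further apart than those of the other groups, with an SD of the log2 difference of 0.571 and 0.566 against 0.236 to 0.310. The 9 hepatocyte markers summed to 6977 to 9864 CPM in Huh7 parental and 17324 to 22004 CPM in Hep3B parental cells, so these liver markers were present in both parental lines, and to more in DMSO cells, at 17150 to 20572 CPM in Huh7 and 31642.5 to 37884 CPM in Hep3B. The sum was 88.6 to 406 CPM in Huh7-IR, 1293 to 2675 in Huh7-CR, 3380 to 10270.4 in Hep3B-IR and 1209 to 2134 in Hep3B-CR cells, and its part in the results was not tested. Of the 10 leukocyte markers, 6 to 9 stayed under 1 CPM in both libraries of each group, and PTPRC (CD45) lay between 0.0429 and 1.32 CPM in all libraries. Their sum was 31.7 to 42.2 CPM in Huh7 parental, 2.11 to 8.60 in Huh7-IR and 34.2 to 65.7 in Huh7-CR cells, most of it LYZ in parental and CR cells, and 2.98 to 11.9 CPM over the Hep3B parental, IR and CR libraries, with 31.9 to 36.1 CPM in the Hep3B DMSO libraries. Of the 5 endothelial markers, 3 to 5 stayed under 1 CPM in both libraries of each group. Of the 6 fibroblast and stellate markers the sum was 284 to 337 CPM in Huh7 parental, 313 to 338 in Huh7-IR and 491 to 772 in Huh7-CR cells, and 27.7 to 37.1 in Hep3B parental, 33.2 to 86.8 in Hep3B-IR and 68.6 to 87.0 in Hep3B-CR cells. Of its 5 tested genes, 4 were called higher and 1 lower than in parental cells in both Huh7 populations. In Hep3B-IR cells 1 was called in each direction, and in Hep3B-CR cells 1 was called higher. COL1A1, a collagen chain, was the gene called higher in each of these comparisons, by 4.21 to 5.69, and LUM, a matrix proteoglycan, fell from 277 to 329 CPM in Huh7 parental to 31.9 to 48.9 CPM in Huh7-IR cells. The part of these genes in the results was not tested.

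**Figure D1:**
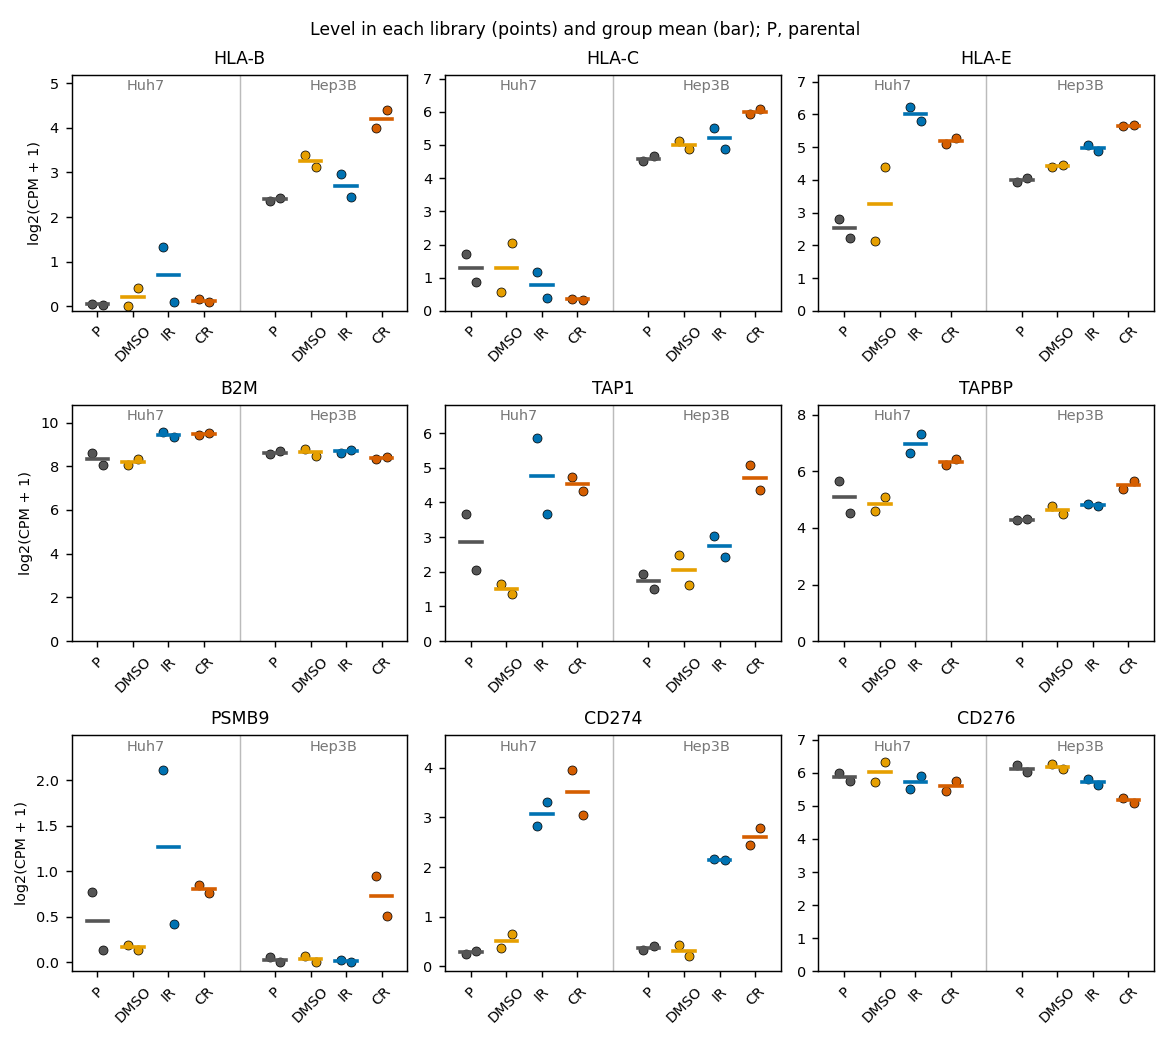
Level of each of the 9 genes on the log2(CPM + 1) scale, with 1 point per library, a bar at the mean of the 2 libraries of a group, Huh7 on the left and Hep3B on the right of each panel, and vertical scales that differ between panels. HLA-B and HLA-C are low in all Huh7 libraries, and CD274 is under 1 CPM in the 8 parental and DMSO libraries and above 3 CPM in the 8 resistant ones.

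The parental lines differed first in their heavy chains. In parental Hep3B cells HLA-B lay at 4.17 and 4.36 CPM and HLA-C at 21.8 and 24.4 CPM. In parental Huh7 cells HLA-B lay at 0.0437 and 0.0268 CPM, which is 3 and 2 reads, and HLA-C at 2.30 and 0.830 CPM. HLA-E lay at 14.4 and 15.6 CPM in Hep3B and at 6.01 and 3.71 CPM in Huh7 parental cells. Huh7 was thus the lower line for all 3 heavy chains. On the log2(CPM + 1) scale the difference, Huh7 minus Hep3B, was -2.35 for HLA-B (SE 0.33, adjusted p = 8.65e-05), -3.29 for HLA-C (SE 0.43, adjusted p = 5.40e-05) and -1.48 for HLA-E (SE 0.50, adjusted p = 0.0275), in limma's fit over the 15019 genes that reached 1 CPM in 2 or more libraries. The difference in HLA-E lost its call without Huh7 parental replicate 2 (-1.19, adjusted p = 0.156) and without either Hep3B parental replicate, with an adjusted p between 0.00462 and 0.156 over all alternatives. These were 3 of the 8 members tested, with 50.3% of all genes called between the lines. In bulk RNA, fewer cells that express a gene and less RNA per cell cannot be told apart.

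Of the other members, TAP1 lay at 11.6 and 3.12 CPM in Huh7 and at 2.81 and 1.86 CPM in Hep3B parental cells. Its difference was not called in limma's fit (1.13, SE 0.64, adjusted p = 0.165). PSMB9, at 0.713 and 0.0938 CPM in Huh7 against 0.0404 and 0 CPM in Hep3B parental cells, was not tested. B2M lay at 383 and 263 CPM in Huh7 and at 375 and 410 CPM in Hep3B parental cells. TAPBP lay at 49.9 and 22.3 CPM in Huh7 and at 18.4 and 18.9 CPM in Hep3B, a difference of 0.81 (SE 0.32) with an adjusted p of 0.05002, just over the threshold. Per kilobase of transcript, B2M had a mean level of 342 CPM in Huh7 and 416 CPM in Hep3B parental cells, far above HLA-E with 1.91 and 5.89, HLA-C with 1.01 and 14.99 and HLA-B with 0.0229 and 2.78 CPM per kilobase.

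The heavy chain genes resemble each other, so unique mapping could drop or move some of their reads. Of all 75-base windows of the reference transcript, 219 of the 1462 windows of HLA-B, 2.3% of HLA-E and 2.0% of HLA-C also occurred in transcripts of another gene, against 0.0% of B2M, CD274, CD276 and PSMB9. The share was 19.6% for TAP1, in part with TAP2 and PSMB8-AS1, and 39.2% for TAPBP, with transcripts of many genes elsewhere. The HLA-B windows were shared with a gene without a symbol and with no other HLA gene, those of HLA-C with other HLA genes. A window found in transcripts of several genes need not match several places in the genome, so the shares do not measure lost reads. Both lines can carry alleles that differ from the reference, and their part in the low Huh7 counts was not tested. HLA-B and HLA-C values are uncertain to that extent.

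The question of the main comparisons was how each resistant population differed from the parental cells of its line, and PSMB9 was left out of the tests since it passed 1 CPM in 1 library only. In Huh7-IR cells 5 of the 8 tested members rose and 0 fell, with 57.5% of all genes called and 36.0% called higher. In Huh7-CR cells 4 rose and 0 fell, with 41.3% of all genes called, 24.5% higher and 16.8% lower. In Hep3B-IR cells 1 rose and 0 fell, with 32.0% of all genes called and 18.3% higher, and in Hep3B-CR cells 6 rose and 1 fell, with 38.8% of all genes called, 23.6% higher and 15.2% lower. The median log2 change of the 8 was 1.501, 1.20, 0.56 and 1.54 in these 4 comparisons, beside 0.19, 0.07, 0.06 and 0.11 over all tested genes. Both resistant populations of a line share their parental reference, so the results are not independent. Lists of 4 values keep this order of comparisons.

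**Figure D2:**
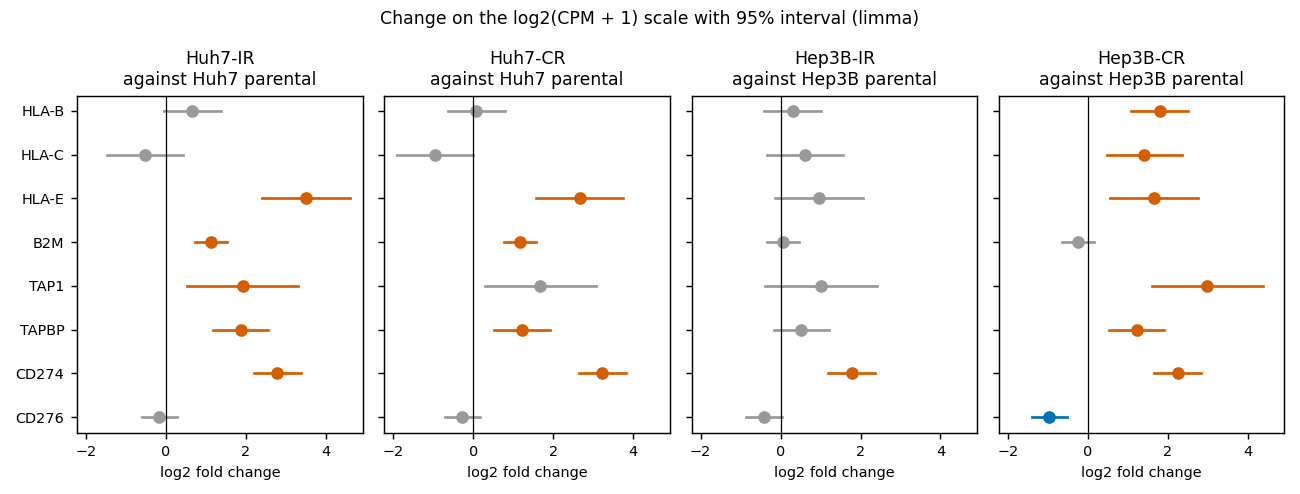
Log2 fold change on the log2(CPM + 1) scale of the 8 tested genes in the 4 comparisons with parental cells, with 95% intervals from limma, orange for genes called higher, blue for called lower and gray for not called. CD274 is called higher in each panel, and CD276 is called lower in Hep3B-CR cells with a change of -0.96.

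HLA-E was the heavy chain that rose in Huh7. Its levels were 74.4 and 54.8 CPM in Huh7-IR and 32.9 and 38.0 CPM in Huh7-CR cells, against 6.01 and 3.71 CPM in parental cells. No resistant library overlapped a parental library. The increase was 3.50 (SE 0.50, adjusted p = 0.000103) in Huh7-IR and 2.66 (SE 0.50, adjusted p = 0.00127) in Huh7-CR cells on the log2 scale, or 13.3-fold and 7.29-fold in mean CPM. The Huh7 DMSO libraries lay at 3.35 and 20.1 CPM, so DMSO replicate 2 stood above both parental libraries and below all 4 resistant ones. In Hep3B, HLA-E lay at 32.4 and 28.3 CPM in IR and at 49.2 and 49.7 CPM in CR cells, above the parental 14.4 and 15.6 CPM in each case. The increase was called in Hep3B-CR cells (1.66, SE 0.50, adjusted p = 0.0210) and not in Hep3B-IR cells (0.97, SE 0.50, adjusted p = 0.169). With only the Hep3B libraries in limma's fit the Hep3B-IR increase was called (adjusted p = 0.000986). It was also called with only the groups compared (adjusted p = 0.0125), and its adjusted p reached 0.436 over all alternatives. With any of the 4 Hep3B parental and CR libraries left out the Hep3B-CR increase was 1.60 to 1.71 and no longer called, and over all alternatives the adjusted p lay between 0.000145 and 0.0864. In the order of group means Huh7-IR stood first, followed by Hep3B-CR, Huh7-CR and Hep3B-IR cells without overlap between neighbours. The lowest 3 groups were Hep3B parental, Huh7 DMSO and Huh7 parental cells. Huh7 DMSO cells overlapped both parental groups, which did not overlap each other.

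HLA-B and HLA-C, classical heavy chains, rose in Hep3B-CR cells. HLA-B lay at 14.9 and 20.2 CPM there, at 6.77 and 4.45 CPM in Hep3B-IR and at 9.55 and 7.72 CPM in Hep3B DMSO cells. The DMSO libraries thus stood above both parental libraries (4.17 and 4.36 CPM) and above both IR libraries. The increase in Hep3B-CR over parental cells was 1.80 (SE 0.33, adjusted p = 0.00116), and over DMSO cells it was 0.94. HLA-C lay at 60.3 and 66.2 CPM in Hep3B-CR, 44.2 and 28.7 CPM in Hep3B-IR and 34.0 and 28.3 CPM in Hep3B DMSO cells, and its increase in CR cells was 1.41 (SE 0.43, adjusted p = 0.0221). Neither increase was called by edgeR (adjusted p = 0.0920 for HLA-B and 0.124 for HLA-C) or DESeq2 (0.189 and 0.190) on the recovered reads, with an adjusted p between 7.51e-05 and 0.189 for HLA-B and between 0.00132 and 0.190 for HLA-C over all alternatives. HLA-C also lost its call with any of the 4 libraries left out, at 1.33 to 1.49. In Hep3B-IR cells HLA-B differed by 0.31 (SE 0.33, adjusted p = 0.528) and HLA-C by 0.60 (SE 0.43, adjusted p = 0.324) from parental cells.

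In Huh7 these genes stayed low in every group. HLA-B was under 1 CPM in 7 of 8 Huh7 libraries, and Huh7-IR replicate 1 reached 1.51 CPM while replicate 2 had 0.0644 CPM. Its change in Huh7-IR cells was 0.66 (SE 0.33, adjusted p = 0.105), which fell to 0.04 without IR replicate 1 and was called at 1.28 without IR replicate 2. HLA-B was also called by edgeR (4.25, adjusted p = 0.0135) and DESeq2 (4.27, adjusted p = 0.00365) in Huh7-IR cells, with an adjusted p between 0.00176 and 0.919 over all alternatives. In Huh7-CR cells HLA-B lay at 0.124 and 0.0654 CPM, a change of 0.08 (SE 0.33, adjusted p = 0.884). HLA-C lay at 1.26 and 0.3003 CPM in Huh7-IR and at 0.278 and 0.262 CPM in Huh7-CR cells, against 2.30 and 0.830 CPM in parental cells. Both CR libraries were under both parental ones, with a change of -0.95 (SE 0.43, adjusted p = 0.0991), and IR cells overlapped parental cells (-0.52, SE 0.43, adjusted p = 0.325). The HLA-C change in Huh7-CR cells was called lower by edgeR (-2.60, adjusted p = 0.0231), and by DESeq2 (-2.60, adjusted p = 0.00727), with an adjusted p between 0.00727 and 0.475 over all alternatives. After a GC correction HLA-C was called lower in Huh7-IR (-1.08) and Huh7-CR cells (-1.09).

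B2M, the light chain that all class I heavy chains need, rose in the resistant Huh7 cells and was not called in Hep3B. Its levels were 763 and 636 CPM in Huh7-IR and 694 and 740 CPM in Huh7-CR cells, against 383 and 263 CPM in parental and 264 and 322 CPM in DMSO cells. All 4 resistant Huh7 libraries stood above every other library of the study. The increase was 1.13 (SE 0.18, adjusted p = 0.000250) in Huh7-IR and 1.17 (SE 0.18, adjusted p = 0.000344) in Huh7-CR cells, and it was called under every alternative run. In Hep3B, B2M lay at 392 and 424 CPM in IR and at 316 and 340 CPM in CR cells, against 375 and 410 CPM in parental cells, so IR cells overlapped parental cells and both CR libraries lay under them. The change was 0.06 (95% interval -0.35 to 0.46) in Hep3B-IR and -0.26 (95% interval -0.66 to 0.14) in Hep3B-CR cells. The sign in Hep3B-IR cells changed with several settings and carries no direction.

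TAP1, a subunit of the peptide transporter, had its 3 highest group means in Huh7-IR, Hep3B-CR and Huh7-CR cells, with wide replicate differences. In Huh7-IR cells the libraries had 57.2 and 11.7 CPM, in Huh7-CR cells 25.8 and 18.9 CPM and in Huh7 parental cells 11.6 and 3.12 CPM. The lower IR library thus lay just above the higher parental library. The increase in Huh7-IR cells was 1.92 (SE 0.64, adjusted p = 0.0223) and was no longer called without Huh7-IR replicate 1 (0.82, adjusted p = 0.266) or without Huh7 parental replicate 2 (1.11, adjusted p = 0.227), with an adjusted p between 0.00102 and 0.266 over all alternatives. The increase in Huh7-CR cells was 1.68 (SE 0.64, adjusted p = 0.0532), just over the threshold, and was called without parental replicate 1 (2.49). In Hep3B-CR cells TAP1 lay at 32.7 and 19.5 CPM against 2.81 and 1.86 CPM in parental cells. This increase of 2.99 (SE 0.64, adjusted p = 0.00316), or 11.2-fold in mean CPM, was called under every alternative run. Hep3B-IR cells had 7.21 and 4.38 CPM, a change of 1.01 (SE 0.64, adjusted p = 0.261).

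TAPBP encodes tapasin. It lay at 99.0 and 158 CPM in Huh7-IR and at 73.6 and 85.4 CPM in Huh7-CR cells, above both parental libraries (49.9 and 22.3 CPM). The increase was 1.87 (SE 0.32, adjusted p = 0.000345) in Huh7-IR and 1.22 (SE 0.32, adjusted p = 0.00876) in Huh7-CR cells. Without Huh7 parental replicate 2 the increase in Huh7-CR cells was 0.66 (adjusted p = 0.109) and without Huh7-CR replicate 2 it was 1.11 (adjusted p = 0.0576), with an adjusted p between 0.000896 and 0.109 over all alternatives. In Hep3B-CR cells TAPBP lay at 40.6 and 49.7 CPM and in Hep3B-IR cells at 27.9 and 26.3 CPM, against 18.4 and 18.9 CPM in parental cells. The change was 1.22 (SE 0.32, adjusted p = 0.00946) in Hep3B-CR cells, not called without CR replicate 2 (1.08), and 0.52 (SE 0.32, adjusted p = 0.246) in Hep3B-IR cells. With only the Hep3B libraries in limma's fit the Hep3B-IR change was called (adjusted p = 0.0284), as it was with only the groups compared (adjusted p = 0.0360). Over all alternatives its adjusted p reached 0.703.

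PSMB9, an immunoproteasome subunit that replaces a constitutive catalytic subunit, was near the detection limit. In Huh7 it had 49 and 7 reads in parental, 10 and 7 in DMSO, 201 and 16 in IR and 52 and 53 in CR libraries, which is 0.713 and 0.0938, 0.138 and 0.101, 3.33 and 0.343, and 0.804 and 0.694 CPM. In Hep3B it had 3 and 0 reads in parental, 4 and 0 in DMSO, 1 and 0 in IR and 70 and 22 in CR libraries. The Hep3B-CR libraries, with 0.927 and 0.419 CPM, were the only Hep3B libraries above 4 reads. With no filter on low values (23311 genes) PSMB9 changed by 0.82 (SE 0.42, adjusted p = 0.157) in Huh7-IR and by 0.70 (SE 0.42, adjusted p = 0.290) in Hep3B-CR cells, and no comparison called it.

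TAP1 and PSMB9 varied alike from library to library. Huh7-IR replicate 1 held the highest level of both genes among the 16 libraries, and within the Hep3B line replicate 1 of CR cells did so. The Pearson correlation of log2(CPM + 1) was 0.89 over the 8 Huh7 and 0.91 over the 8 Hep3B libraries, as a description, since libraries of a group share its treatment and depth. In Huh7-IR cells the HLA-B values were split in the same way between the replicates, with 1.51 against 0.0644 CPM. The TAP1 and PSMB9 annotations overlap on opposite strands, and the strand setting of the counting is not given in the sources used here, so reads of the overlapping stretches cannot be assigned with certainty.

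CD274 (PD-L1) rose in all 4 resistant populations. It lay at 6.05 and 8.95 CPM in Huh7-IR, 14.6 and 7.25 CPM in Huh7-CR, 3.47 and 3.40 CPM in Hep3B-IR and 4.42 and 5.92 CPM in Hep3B-CR cells. Parental cells had 0.189 and 0.241 CPM in Huh7 and 0.256 and 0.324 CPM in Hep3B, and DMSO cells had 0.290 and 0.560 CPM in Huh7 and 0.351 and 0.151 CPM in Hep3B. All 8 resistant libraries thus lay above all 8 parental and DMSO libraries. CD274 passed the filter of 1 CPM only through the resistant libraries. The increase was 2.79 (SE 0.27, adjusted p = 5.08e-06) in Huh7-IR, 3.22 (SE 0.27, adjusted p = 2.80e-06) in Huh7-CR, 1.78 (SE 0.27, adjusted p = 0.000389) in Hep3B-IR and 2.25 (SE 0.27, adjusted p = 6.65e-05) in Hep3B-CR cells. The ratio of mean CPM was 34.9, 50.8, 11.8 and 17.9, larger than the log2 values give, since the pseudocount of 1 CPM exceeds the parental level. These calls held under every alternative run, with log2 changes of 1.44 to 4.91, 1.78 to 5.57, 0.79 to 3.49 and 1.09 to 4.03. Huh7-CR and Huh7-IR cells overlapped in level, and both stood above Hep3B-CR cells, which stood above Hep3B-IR cells.

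CD276 (B7-H3) was the only member that limma called lower than in parental cells. It lay at 36.7 and 33.0 CPM in Hep3B-CR and at 54.8 and 48.5 CPM in Hep3B-IR cells, against 73.5 and 64.5 CPM in parental and 75.9 and 67.6 CPM in DMSO cells. The decrease was 0.96 (SE 0.20, adjusted p = 0.00289) in Hep3B-CR cells, and the change in Hep3B-IR cells was -0.41 (SE 0.20, adjusted p = 0.148). With only the Hep3B libraries in limma's fit the Hep3B-IR change was called (adjusted p = 0.0274). In Huh7, CD276 lay at 44.7 and 58.7 CPM in IR and at 42.4 and 52.8 CPM in CR cells, against 62.2 and 53.1 CPM in parental cells, with changes of -0.16 (SE 0.20, adjusted p = 0.519) and -0.27 (SE 0.20, adjusted p = 0.309). Its exons hold 58.7% GC, and after a GC correction of each library it was called lower also in Huh7-IR (-0.63), Huh7-CR (-0.39) and Hep3B-IR cells (-0.47).

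Among other checkpoint ligand genes, PDCD1LG2 (PD-L2), the second ligand of PD-1, appeared in resistant Huh7 cells. It had 282 and 190 reads in Huh7-IR and 458 and 212 reads in Huh7-CR libraries and 0 reads in each of the 8 parental and DMSO libraries. Relative to the approximate limit of 3 reads over both parental libraries, its mean CPM was 209-fold higher in Huh7-IR and 235-fold higher in Huh7-CR cells. The Hep3B-IR and Hep3B-CR libraries had 1 or 2 reads each. PDCD1LG2 thus entered the tests only through the resistant Huh7 libraries, and its calls there are not independent of the filter. Of the 14 tested genes of a list of 19 checkpoint ligands, 5, 4, 6 and 4 rose and 4, 4, 1 and 3 fell. Among all genes, 36.0%, 24.5%, 18.3% and 23.6% were called higher and 21.5%, 16.8%, 13.7% and 15.2% lower. The list median was 0.18, 0.05, 0.74 and -0.21 in these comparisons.

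**Figure D3:**
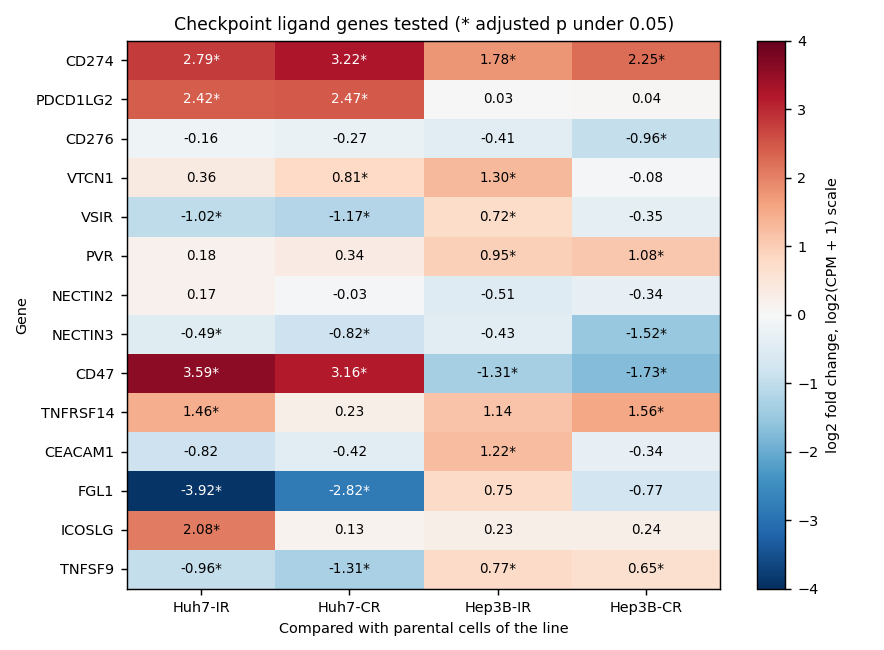
Log2 fold change on the log2(CPM + 1) scale of the 14 tested checkpoint ligand genes (rows) in the 4 comparisons with parental cells (columns), red for higher and blue for lower, with an asterisk at an adjusted p under 0.05. CD274 is the row called higher in each column, and PDCD1LG2 is called in Huh7 with 2.42 and 2.47. Both genes passed the filter on low values only through resistant libraries, where they are high.

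Cells labeled DMSO served as a further reference. In Huh7 DMSO against Huh7 parental cells 0 of the 8 tested members were called by limma, with 5.18% of all genes called, 0 had an unadjusted p under 0.05, edgeR called 0 and DESeq2 called 1, TAP1 as lower. TAP1 had 2.14 and 1.55 CPM in Huh7 DMSO cells, under both parental libraries, with a change of -1.35 (SE 0.64, adjusted p = 0.215), and HLA-E changed by 0.74 (SE 0.50, adjusted p = 0.381). Without Huh7 DMSO replicate 1 the HLA-E change was called at 1.88 (adjusted p = 0.000436) and without replicate 2 it was -0.40 (adjusted p = 0.654). In Hep3B DMSO against Hep3B parental cells 0 of 8 were called, with 1.64% of all genes called, 1 had an unadjusted p under 0.05 and edgeR and DESeq2 called 0. That gene was HLA-B, with a change of 0.86 (SE 0.33, adjusted p = 0.237).

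Within each line the IR and CR populations were also compared directly. In Huh7, 0 of 8 members were called by limma, edgeR or DESeq2, with 9.67% of all genes called higher and 6.36% lower by limma, and 0 had an unadjusted p under 0.05. TAP1 differed by 0.24 (95% interval -1.16 to 1.63) between Huh7-IR and Huh7-CR cells. In Hep3B, HLA-B was lower in IR than in CR cells, with a difference of -1.495 (SE 0.33, adjusted p = 0.0116), and it was the only call among 8 members, with 7.55% of all genes called lower and 6.13% higher. This call was lost without Hep3B-IR replicate 2 (-1.24, adjusted p = 0.116), without Hep3B-CR replicate 2 (-1.29, adjusted p = 0.102) and with edgeR (-1.59), with an adjusted p between 0.000774 and 0.381 over all alternatives. The difference was -1.98 for TAP1 (SE 0.64, adjusted p = 0.0603), -0.47 for CD274 (SE 0.27, adjusted p = 0.278) and 0.55 for CD276 (SE 0.20, adjusted p = 0.0929), none of them called.

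The lines were compared by the mean change of IR and CR over parental cells, Huh7 minus Hep3B, in which 4 of the 8 members were called, with 31.6% of all genes. B2M gained more in Huh7 by 1.25 (SE 0.23, adjusted p = 0.00138), and this was called under every alternative run. HLA-E gained more in Huh7 by 1.77 (SE 0.62, adjusted p = 0.0459) and CD274 by 0.99 (SE 0.33, adjusted p = 0.0379), while HLA-C differed by -1.74 (SE 0.53, adjusted p = 0.0257), lower in Huh7. The calls of HLA-E, CD274 and HLA-C did not hold under many settings, with an adjusted p of up to 0.174, 0.115 and 0.132, respectively, over the alternatives. HLA-E kept its call without Huh7-IR replicate 2 and lost it without any other of the 12 libraries, at 1.48 to 2.05. CD274 lost its call without any parental library, Huh7-IR replicate 2, either Hep3B-IR library or Hep3B-CR replicate 1, at 0.87 to 1.03. HLA-C lost its call without Huh7 parental replicate 1 (-1.32), either Hep3B parental library (-1.67 and -1.82) or Hep3B-IR replicate 1 (-1.59).

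Lists of the class I pathway hold the members above and other genes. Beside these and the following lists, 36.0%, 24.5%, 18.3% and 23.6% of all genes were called higher in the 4 comparisons. The shares called lower were 21.5%, 16.8%, 13.7% and 15.2%. Of the 9 genes of peptide loading and trimming, 3, 2, 2 and 7 rose and 2, 2, 0 and 0 fell in the 4 comparisons, with a median of 0.03, -0.06, 0.37 and 1.22. ERAP2, an aminopeptidase that trims peptides, was higher in each, by 1.87, 2.07, 0.67 and 1.51. TAP2, the partner of TAP1 in the transporter, rose in Hep3B-CR cells (1.93, adjusted p = 0.00241) and in the Huh7 comparisons had changes of 0.03 and -0.54, neither called. Of the 8 tested class I and class I-like heavy and light chain genes of 11, 4, 3, 1 and 4 rose and 2, 1, 0 and 0 fell. MR1, which presents vitamin B metabolites, was called higher in each, by 1.52, 1.86, 0.87 and 1.30.

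The 9 tested genes of the constitutive proteasome list all fell in both resistant Huh7 populations, with a median of -0.80 and -0.68 and 21.5% and 16.8% of all genes called lower, and 2 of the 9 fell in each of the Hep3B comparisons, where 13.7% and 15.2% of all genes did, with a median of -0.21 and -0.25. PSMB4, a structural beta subunit, fell by 1.33, 1.41, 0.79 and 0.44 in the 4 comparisons. Of the 4 tested genes of the immunoproteasome and activator list of 5, 2, 1, 1 and 2 rose and 0 fell. PSME1, a subunit of the proteasome activator that interferon-gamma induces, rose in each, by 1.17, 0.84, 1.10 and 1.45. PSMB8, another immunoproteasome subunit, rose in Huh7-IR cells (1.35, adjusted p = 0.0102), where its libraries lay at 4.61 and 0.665 CPM. It reached 1 CPM in resistant libraries only, so this call is not independent of the filter. PSMB10, the remaining one, rose in Hep3B-CR cells (0.61, adjusted p = 0.0411).

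Among the regulators, NLRC5, the transactivator of class I genes, lay at 6.15 and 4.35 CPM in Huh7-IR and at 2.77 and 2.83 CPM in Huh7-CR cells, against 0.509 and 0.134 CPM in parental cells. It rose by 2.24 (SE 0.18, adjusted p = 1.09e-06) and 1.54 (SE 0.18, adjusted p = 3.47e-05). NLRC5 reached 1 CPM in resistant libraries only, so its calls are not independent of the filter. In Hep3B-CR cells it lay at 0.715 and 1.07 CPM, an increase of 0.86 (SE 0.18, adjusted p = 0.00246) over 2 and 3 reads in parental cells, and in Hep3B-IR cells the change was 0.12 (SE 0.18, adjusted p = 0.648). IRF1, a transcription factor that binds the ISRE, rose in Huh7-IR (1.33), Huh7-CR (0.71) and Hep3B-CR cells (2.20, adjusted p = 1.17e-05), where it lay at 42.5 and 34.3 CPM against 7.996 and 7.10 CPM in parental cells, and changed by 0.49 (adjusted p = 0.0882) in Hep3B-IR cells. The 13 class I transcription regulators together had 4, 4, 0 and 2 genes called higher and 1, 2, 2 and 3 called lower. NFKB1, the precursor of an NF-κB subunit, fell by 1.32, 0.83, 0.40 and 0.57.

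Of 10 tested genes of the interferon receptor signaling list of 11, 7, 7, 6 and 7 rose and 0 fell. The list median was 1.06, 0.72, 0.56 and 0.92. STAT2 and IRF9, which act in a complex that binds the ISRE, rose by 1.53, 1.02, 0.63 and 0.87 for STAT2 and by 2.01, 1.20, 0.93 and 1.05 for IRF9. SOCS3, a feedback inhibitor of cytokine receptors, rose by 2.38, 2.29, 1.13 and 1.41.

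Regulators of the PD-L1 protein were called in both directions. Of the 12 tested, 3, 3, 1 and 3 rose and 2, 0, 3 and 3 fell. CMTM6, which keeps PD-L1 at the cell surface, fell by 0.49 in Huh7-IR cells and by 0.76 (IR) and 0.89 (CR) in Hep3B, and in Huh7-CR cells it changed by -0.11 (adjusted p = 0.566). B3GNT3, a glycosyltransferase that acts on PD-L1, rose by 3.32 in Huh7-CR cells and by 3.56 (IR) and 2.90 (CR) in Hep3B, and changed by 0.19 (adjusted p = 0.727) in Huh7-IR cells.

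For each tested member the genes of most similar pattern over the 16 libraries were found by the Pearson correlation of log2(CPM + 1), as a description, since the libraries share groups and lines. They were HECW2 (0.98) and LINC00941 (0.98) for CD274, DNASE2 (0.97) and VAT1 (0.97) for HLA-E, NFATC1 (0.99) and STAP2 (0.98) for HLA-C, RPS6 (0.98) and LINC02591 (0.98) for HLA-B, and GNAQ (0.93) and GASK1B (0.93) for B2M. For TAP1 they were POMT2 (0.94) and EIF3K (0.93), for TAPBP BLCAP (0.96) and VPS37B (0.96), and for CD276 DCAF6 (0.90) and HYAL2 (0.89).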

How the data were processed

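The 16 RNA libraries fall into 8 groups, each with 2 replicates, as the sample titles give them. The study's methods name 3 biological replicates, a stranded total RNA kit and a HiSeq instrument, while the labels give poly(A)-enriched stranded mRNA libraries and a NextSeq instrument. The authors mapped reads to hg19 with STAR, kept unique hits, counted them over exons of RefSeq mRNAs with QuasR and deposited CPM values, counts divided by the library total. The strand setting is not given in the sources used here. Times the library total, all values came out whole within 0.05 reads, giving library totals of 46613302 to 76860251 reads. Of the 26258 gene numbers 26111 were matched to a symbol.

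The log2(CPM + 1) values of the 15019 genes that reached 1 CPM in 2 or more libraries were fitted with limma 3.58.1 (R 4.3.3), in a single fit of 8 groups with a mean-variance trend and a two-sided moderated test. A gene was called at a Benjamini-Hochberg adjusted p under 0.05 over all genes tested. Fold changes of low genes are understated by the pseudocount. CD274, PDCD1LG2, NLRC5 and PSMB8 reached 1 CPM in resistant libraries only, so they were tested through the groups where they are high. The fit was tested on simulated data. The thresholds of the study's methods (p under 0.05 without adjustment, absolute log2 change over 0.58) were an alternative, as were edgeR 4.0.16 and DESeq2 1.42.0 on the recovered reads, TMM and quantile scaling, other pseudocounts and filters, a GC correction, the replicate block, fewer groups in the fit, DMSO as reference and leaving out each library.

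The members and lists were chosen with earlier results of these data known. Named beside the members were NLRC5, IRF1, PSMB8, PSMB10, TAP2, PDCD1LG2 and CMTM6, from each list the genes called the same way in all 4 comparisons of IR or CR with parental cells (at most the 3 of largest mean change, or else the 1 of largest mean change called in at least 2), and the 2 genes most correlated with each member. Gene positions are from GENCODE on GRCh37. Promoter windows are from RefSeq, and no set test was run. Some genes that this rule names are not reported here.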

Additional observations from a re-analysis of the deposited data

Results flagged for a closer look

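For 4 members the change from parental cells, averaged over the IR and CR populations, differed between the lines in limma's test of that difference. On the log2(CPM + 1) scale the change in Huh7 minus that in Hep3B was 1.25 for B2M, 1.77 for HLA-E, 0.99 for CD274 and -1.74 for HLA-C. The difference of B2M was called under every alternative run. Those of HLA-E, CD274 and HLA-C were not. With DMSO as reference each of them lost its call (limma adjusted p = 0.0887, 0.115 and 0.0708). B2M rose in Huh7 and was not called in Hep3B, and CD274 was called higher in each of the 4 resistant populations. HLA-E was called higher in both Huh7 populations and in Hep3B-CR cells. Its Hep3B-CR call was lost with any single library of that comparison left out. HLA-C was called higher in Hep3B-CR cells only. That call was lost with edgeR, with DESeq2 and with any single library of the comparison left out. The parental libraries of a line enter both its IR and CR changes.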

How the results depend on the processing

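Called under every alternative run were the increases of CD274 in the 4 comparisons with parental cells, of HLA-E and B2M in both resistant Huh7 populations, of TAPBP in Huh7-IR and of TAP1 in Hep3B-CR cells, the decrease of CD276 in Hep3B-CR cells, the lower HLA-B and HLA-C in Huh7 than in Hep3B parental cells, and the line difference of B2M. Depth limits HLA-B in Huh7 and PSMB9, with few reads.

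The number of members called, and a direction where it turned, depended on the settings below, and the cause was not tested. For Hep3B-IR against Hep3B-CR cells, with 1 call, the number was 0 with edgeR or a pseudocount of 0.25, 2 with DESeq2, quantile scaling or a GC correction, 3 with the GC correction and block, 6 within the line, 3 within the groups compared, 3 at the study's thresholds and 0 to 1 with a library left out. For Hep3B-IR against parental cells, with 1 call, it was 2 with the GC correction, with or without the block, 4 within the line and 3 within the groups compared. For Hep3B-CR against parental cells, with 7 calls, it was 4 to 5 with a library left out, and 4 without Hep3B-CR replicate 2. For Huh7-CR against parental cells it rose from 4 to 7 with the GC correction and block. Huh7 DMSO cells had 1 call with DESeq2 or with the GC correction and block, and 0 to 1 with a library left out (1 without DMSO replicate 1). Hep3B DMSO cells had 1 at the study's thresholds. Huh7-IR against Huh7-CR cells had 0 to 1 with a library left out (1 without Huh7-IR replicate 2). The parental lines differed in 5 members with DESeq2 or with the GC correction and block, against 3. The line difference, with 4 calls, had 1 without a filter, 2 with DMSO as reference and 1 to 4 with a library left out, of which 1 without either Hep3B parental library or Hep3B-IR replicate 1 and 2 without either Huh7 parental library, Hep3B-IR replicate 2 or Hep3B-CR replicate 1.

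The direction turned for B2M in Hep3B-IR cells with edgeR (-0.0083), DESeq2 (-0.025) and TMM factors (-0.0055), and it ranged from -0.0097 to 0.12 with a library left out. It turned for HLA-B with DMSO as reference, to -0.086 in Huh7-CR and -0.56 in Hep3B-IR cells. With a library left out CD276 in Huh7-IR cells ranged from -0.36 to 0.031, HLA-E in Huh7 DMSO cells from -0.40 to 1.88 and TAP1 between Huh7-IR and Huh7-CR cells from -0.86 to 1.33. Without scaling factors the median over all genes was 0.19 for Huh7-IR against parental cells, against 0.04 with TMM.

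The main fit did not pair samples by replicate number, and whether these numbers carry a pairing is not known. Deviations of same-numbered libraries correlated over 0.1 in 13 of 28 pairs of groups, with a range of -0.22 to 0.44. With the replicate block Hep3B-IR against Hep3B-CR cells had 2 calls, and TAP1 was called in Huh7-CR cells (1.68, adjusted p = 0.00657).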

Other observations

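Ligands that mark stressed cells for NK and T cells rose in part. Of the 7 tested genes of a list of 10, 3, 3, 1 and 2 rose in the 4 comparisons with parental cells, and 0 fell. Among all genes, 36.0%, 24.5%, 18.3% and 23.6% were called higher in these comparisons. NCR3LG1 (B7-H6), the ligand of the activating NK receptor NKp30, lay at 21.4 to 28.6 CPM in Huh7 parental, 70.7 to 113 in Huh7-IR and 72.9 to 81.8 in Huh7-CR cells. In Hep3B it lay at 4.73 to 8.36 CPM in parental, 70.6 to 85.9 in IR and 78.7 to 140 in CR cells. The increase on the log2(CPM + 1) scale was 1.81, 1.60, 3.43 and 3.86, with a limma adjusted p of up to 0.00629.

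CD47, the signal that keeps macrophages from engulfing a cell, was chosen after its values were seen. It lay at 9.64 to 13.5 CPM in Huh7 parental, 148 to 150 in Huh7-IR and 109 to 112 in Huh7-CR cells, and at 109 to 139 CPM in Hep3B parental, 40.5 to 58.7 in Hep3B-IR and 35.9 to 36.7 in Hep3B-CR cells. In Huh7 it rose by 3.59 (IR) and 3.16 (CR), while in Hep3B it fell by 1.31 (IR) and 1.73 (CR). The difference between the lines was not tested here.

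Class II presentation genes were mostly below the filter, with 2 of 10 tested. CD74 and HLA-DMA were those 2, and CD74, the invariant chain, was called higher in Hep3B-CR (1.27, adjusted p = 0.000531) and also in Hep3B DMSO cells (0.94, adjusted p = 0.0425). They were named after their values were seen.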
